A study of Homo sapiens with 20 samples.

Results

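The DUSP phosphatases described here are 10 human genes, DUSP1, DUSP2, DUSP4, DUSP5, DUSP6, DUSP7, DUSP8, DUSP10, DUSP14 and DUSP16, taken by symbol from the 27896 gene symbols of an RNA count table. Each gene was represented by its transcript with the most reads. 9 of the 10 had enough reads to be tested, among 16432 genes, and DUSP2 did not. The RNA came from HEK293-GR, a human embryonic kidney cell line that constitutively expresses an introduced glucocorticoid receptor. There were 4 groups of 4 libraries: cells with a non-targeting siRNA pool (siNON) and ethanol vehicle, siNON cells with dexamethasone, cells with an siRNA pool against the corepressor BCOR (siBCOR) and vehicle, and siBCOR cells with dexamethasone. All 4 groups carried the introduced receptor, received an siRNA pool at 20 nM for 72 h and were held in steroid-depleted medium, and the synthetic glucocorticoid dexamethasone was given at 100 nM for 6 h. The series text speaks of 3 RNA replicates, while the labels and the table hold 4. Each siRNA was 1 pool, and the labels do not say whether the line is a single clone. BCOR on chromatin was mapped in HEK293-GR cells by ChIP-seq after 1 h of dexamethasone or ethanol, with 2 libraries for each treatment.

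Dual-specificity phosphatases of this family switch off MAP kinases by removing phosphate from both the threonine and the tyrosine of the activation loop. The inducible nuclear members are DUSP1, DUSP2, DUSP4 and DUSP5, and the last of these is specific for ERK. DUSP6 and DUSP7 are cytoplasmic and act on ERK, while DUSP8, DUSP10 and DUSP16 prefer the stress kinases JNK and p38. DUSP14 is a small atypical member that lacks the MAP kinase-binding domain. DUSP1 is a classical glucocorticoid-induced gene, and many of the others are themselves transcribed in answer to MAP kinase activity.

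Dexamethasone raised DUSP1 2.64-fold in siNON cells and lowered DUSP5, DUSP6, DUSP7, DUSP8 and DUSP16, of which DUSP5 fell most, to a level 2.51-fold lower. BCOR depletion lowered DUSP16 with and without hormone, 1.42-fold in vehicle and 1.52-fold in dexamethasone, and also DUSP4. It lowered DUSP5 in vehicle, and DUSP7 and DUSP8 in dexamethasone. The depletion calls of DUSP4 and DUSP7 in dexamethasone were lost in some alternative fits, as was the fall of DUSP7 with dexamethasone in siNON cells. In siBCOR cells that received dexamethasone, DUSP6 stood 1.48-fold higher than in siNON cells that received it. The difference in the hormone effect on DUSP6 between siBCOR and siNON cells was not called (edgeR adjusted p = 0.173), except in 3 of 24 alternative fits. DUSP10 passed the test in no comparison.

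The sequences just before 4 of the transcription starts are shown because the results turn on these genes. RefSeq promoters of the GRCh38.p14 assembly matched 8 of the 10 members by symbol, all but DUSP4 and DUSP5, and the 250 bases before the start were searched on both strands. The match was by symbol only, and whether these starts are those of the counted transcripts was not checked. DUSP1 and DUSP8, which moved in opposite directions with dexamethasone, are printed first, 5′ to 3′ on the strand of the gene. Capitals mark the cyclic AMP response element TGACGTCA, its shorter form TGACGT and the TATA box TATAAA. The DUSP1 sequence is chr5:172771196-172771445 and the DUSP8 sequence is chr11:1572272-1572521, both on the minus strand.
DUSP1: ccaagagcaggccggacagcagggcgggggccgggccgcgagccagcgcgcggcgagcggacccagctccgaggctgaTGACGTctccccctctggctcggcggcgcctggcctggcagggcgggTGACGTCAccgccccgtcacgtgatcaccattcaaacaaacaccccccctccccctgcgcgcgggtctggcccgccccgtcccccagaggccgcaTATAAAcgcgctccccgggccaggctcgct
DUSP8: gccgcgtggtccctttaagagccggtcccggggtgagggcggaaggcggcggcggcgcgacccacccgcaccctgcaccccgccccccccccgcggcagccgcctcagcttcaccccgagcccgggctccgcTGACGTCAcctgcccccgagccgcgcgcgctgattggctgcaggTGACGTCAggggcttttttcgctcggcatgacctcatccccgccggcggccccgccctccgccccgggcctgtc
DUSP16, like DUSP4, fell with BCOR depletion in both treatments, and DUSP6 was the member that stood higher with it in dexamethasone. DUSP16 and DUSP6 follow with every CG pair in capitals. They lie at chr12:12562864-12563113 and chr12:89352502-89352751, both on the minus strand.
DUSP16: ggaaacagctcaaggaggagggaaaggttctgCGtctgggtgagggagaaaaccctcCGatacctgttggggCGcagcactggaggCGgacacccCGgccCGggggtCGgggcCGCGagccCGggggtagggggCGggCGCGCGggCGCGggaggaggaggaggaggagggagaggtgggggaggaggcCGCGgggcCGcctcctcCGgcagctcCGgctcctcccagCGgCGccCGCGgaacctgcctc
DUSP6: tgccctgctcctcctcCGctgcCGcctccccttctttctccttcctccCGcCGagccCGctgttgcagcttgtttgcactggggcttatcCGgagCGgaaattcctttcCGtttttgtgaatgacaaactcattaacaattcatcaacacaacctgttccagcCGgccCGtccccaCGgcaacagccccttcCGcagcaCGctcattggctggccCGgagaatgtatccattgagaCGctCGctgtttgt

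DUSP1 held the full TGACGTCA 125 bases before its start, a TGACGT at 172 bases and a TATAAA at 30 bases. DUSP8 held TGACGTCA at 118 and at 74 bases and no TATAAA. None of the other matched members held either form of the element. Over 35116 promoter windows of the same length, TGACGTCA was present in 1.65%, TGACGT, which the full element contains on both strands, in 7.1%, and TATAAA in 10.7%. The palindromic glucocorticoid response element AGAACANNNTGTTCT and the shorter AGAACA, which it contains, occurred in none of the 8 matched members, and in 0.00285% and 12.4% of all windows. CG pairs numbered 30 in DUSP1, 33 in DUSP8, 25 in DUSP16 and 16 in DUSP6, against a median of 11 over all windows with quartiles of 3 and 23. The other matched members had 25 in DUSP2, 36 in DUSP7, 42 in DUSP14, and 4 and 18 in the 2 promoters of DUSP10. A match to these letters is a description of the sequence and shows no binding.

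Depth was 18580294 to 28054808 counts per library over the chosen transcripts, and levels are in CPM, counts scaled to a common library total with edgeR's trimmed mean of M values. BCOR itself lay at 158.8 to 226.8 CPM in siNON vehicle libraries, 70.64 to 105.9 in siNON dexamethasone, 21.81 to 23.51 in siBCOR vehicle and 13.77 to 15.46 in siBCOR dexamethasone, so the labels matched the targeted gene in all 16 libraries. BCOR was also lower with dexamethasone, with log2 fold changes of -1.06 in siNON and -0.60 in siBCOR cells. 3 libraries stood apart from the other replicates of their groups: siNON dexamethasone replicate 4, siNON vehicle replicate 3 and siBCOR vehicle replicate 2 deviated by a mean of 0.262 to 0.285 log2 units per gene, and the other 13 by 0.127 to 0.191. All 6 genes listed as typical of HEK293 (KRT8, KRT18, VIM, LIN28B, NEFM and PAX2) were detected. Their summed level was 1136 to 1285 CPM in siNON vehicle, 1264 to 1343 in siNON dexamethasone, 982 to 1089 in siBCOR vehicle and 1023 to 1082 in siBCOR dexamethasone, and its part in the results was not tested. Among 8 markers of other cell types, COL1A1 made up nearly all of a summed level of 25.8 to 46.7 CPM, the blood cell and liver markers PTPRC, CD3E and ALB stayed at or below 0.247 CPM, and 0 of the 4 tested were called in any comparison by edgeR or DESeq2 (1 at an unadjusted p under 0.05, lower with BCOR depletion in vehicle). In RNA from a bulk culture, fewer cells with a transcript and less of it per cell cannot be told apart.

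Between genes, levels were compared per transcript length, in CPM per kb. In siNON vehicle cells, DUSP14 was the most abundant at 36.7 ± 3.67 CPM per kb (SD, n = 4). DUSP1 followed at 15.6 ± 1.18 and DUSP7 at 15.1 ± 1.73 CPM per kb, and the libraries of these neighbours overlapped. DUSP16 had 11.6 ± 0.874 CPM per kb and DUSP5 8.69 ± 0.895 CPM per kb. Below them came the stress-kinase phosphatase DUSP8 at 3.39 ± 0.356, then DUSP6 at 2.10 ± 0.226 and DUSP4 at 1.74 ± 0.241 CPM per kb, which again overlapped each other. DUSP10 had 1.19 ± 0.165 CPM per kb. With dexamethasone the order changed at the top: DUSP1 averaged 41.2 CPM per kb in siNON and 44.6 in siBCOR cells, and DUSP14 33.9 and 31.7.

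**Figure D1:**
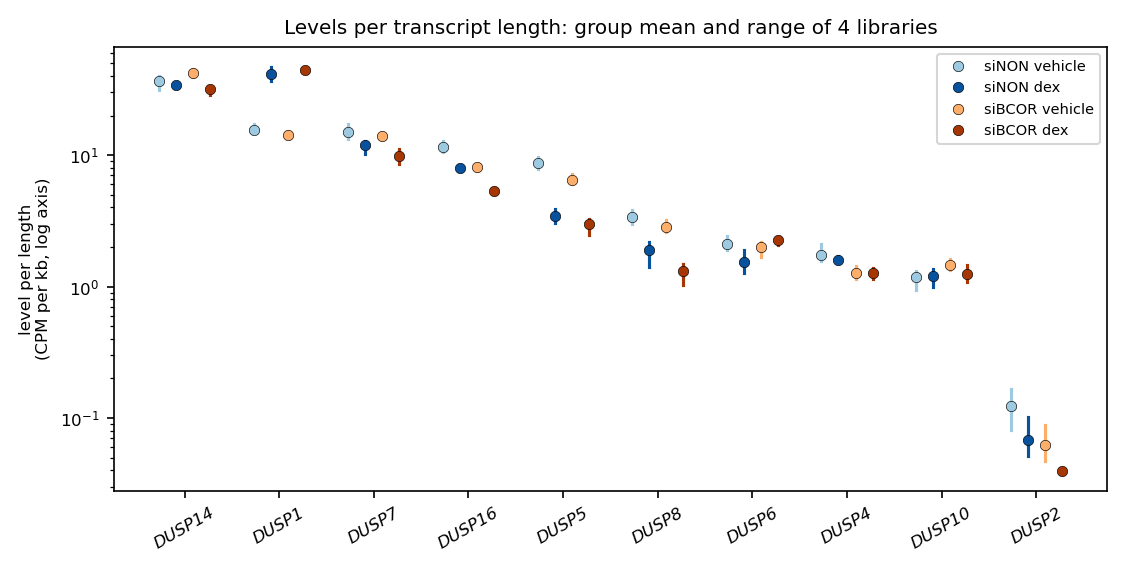
Levels per transcript length in CPM per kb (log axis) of the 10 DUSP genes, ordered by their mean in siNON vehicle libraries. Points are group means and bars run from the lowest to the highest of 4 libraries, except that no bar is drawn for DUSP2 in siBCOR dexamethasone, where 1 library had 0 counts; DUSP14 leads in vehicle, and DUSP1 lies above it in dexamethasone.

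DUSP2, a nuclear phosphatase best known from activated immune cells, was close to undetected. Its counts summed over 4 libraries were 19 in siNON vehicle, 10 in siNON dexamethasone, 9 in siBCOR vehicle and 6 in siBCOR dexamethasone, with 0 to 7 counts in a library. The 1 library with 0 counts allows a level of up to 0.114 CPM, for counting error only. DUSP2 was not tested.

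The effect of dexamethasone was read first in siNON cells. Tests are edgeR's quasi-likelihood test with Benjamini-Hochberg adjustment over every gene tested, and a gene was called at an adjusted p under 0.05. 1 of 9 tested members was higher and 5 were lower, against 10.7% and 8.64% of all genes tested. The median log2 fold change of the 9 was -0.33, and of all genes tested -0.00443. In siBCOR cells the counts were again 1 higher and 5 lower, against 10.5% and 12.5% of all genes tested, with medians of -0.40 and 0.00349. DUSP1, DUSP5, DUSP7, DUSP8 and DUSP16 were called in the same direction in both kinds of cell, DUSP6 in siNON cells and DUSP14 in siBCOR cells. The libraries with and without hormone did not overlap for 5 of 9 members in siNON cells and 6 of 9 in siBCOR cells, against 19.9% and 30.7% of all genes tested.

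**Figure D2:**
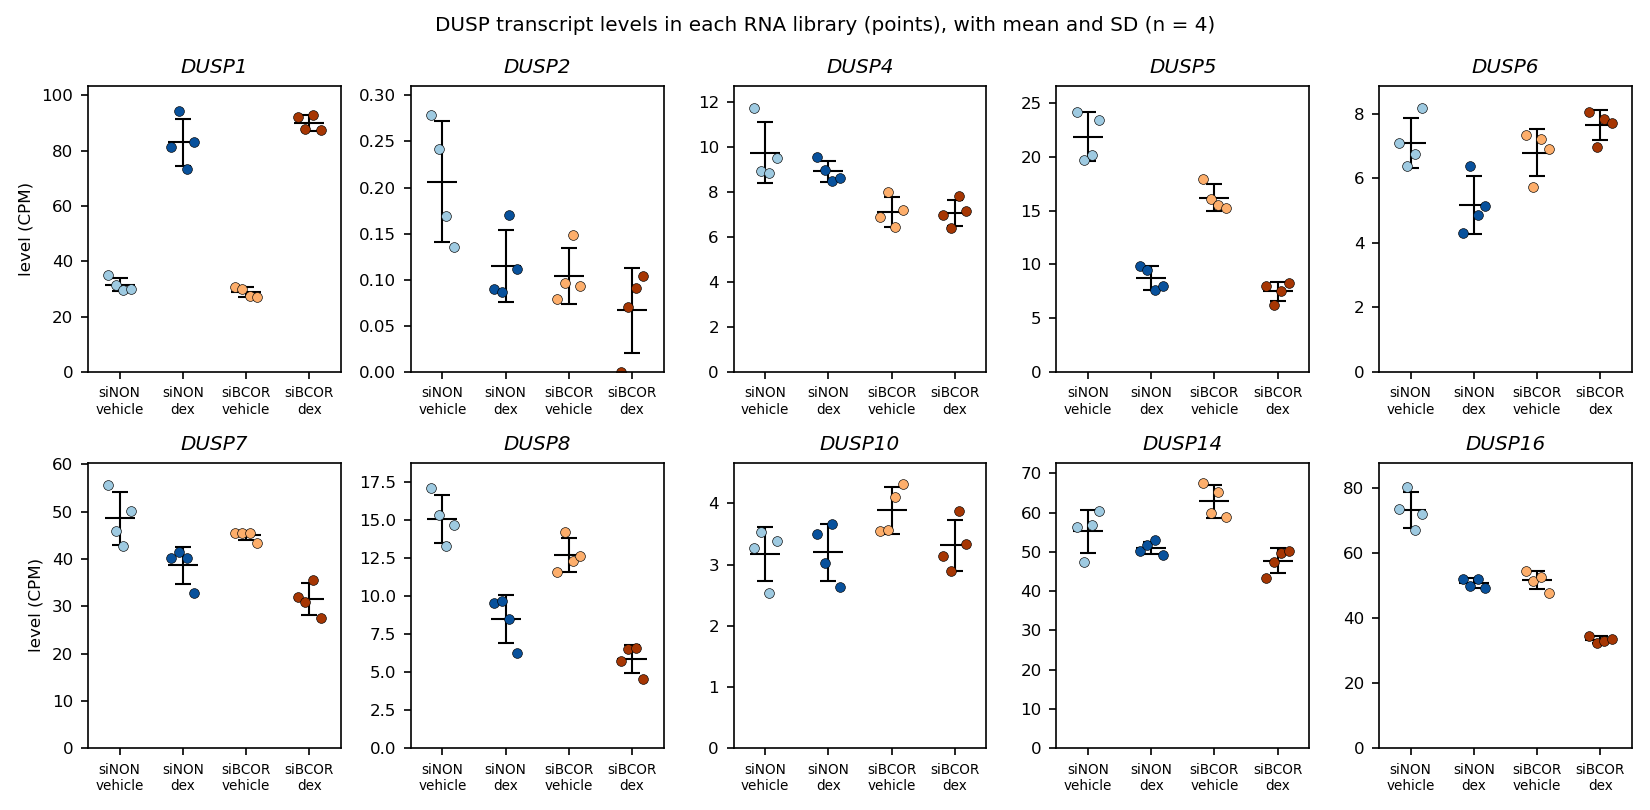
Levels in CPM (vertical axes from 0, a separate scale for each gene) of the 10 DUSP genes in each of 16 RNA libraries. Points are libraries, horizontal ticks the means and bars the SD (n = 4 per group); DUSP1 is higher and DUSP5, DUSP8 and DUSP16 are lower in every dexamethasone library than in the vehicle libraries with the same siRNA.

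Among the nuclear members, DUSP1, which acts on p38, JNK and ERK, stood at 34.9, 31.4, 29.6 and 30.1 CPM in the 4 siNON vehicle libraries and at 81.3, 94.2, 73.5 and 83.3 CPM in the siNON dexamethasone libraries. The lowest dexamethasone library was well above the highest vehicle library, and the log2 fold change was 1.40 ± 0.078 (SE; edgeR adjusted p = 2.98e-10). In siBCOR cells DUSP1 went from 30.8, 29.8, 27.3 and 27.1 CPM to 92.3, 87.8, 92.9 and 87.4 CPM. These groups were also far apart, with a log2 fold change of 1.65 ± 0.079 (edgeR adjusted p = 4.54e-11), or 3.13-fold. 6 of 7 glucocorticoid-response control genes rose in siNON cells too, among them the receptor chaperone FKBP5, with a log2 fold change of 2.33, and the clock gene PER1, with 3.01.

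DUSP5, the nuclear phosphatase of ERK, was 24.2, 19.7, 20.2 and 23.5 CPM in siNON vehicle libraries and 9.85, 9.47, 7.62 and 7.96 CPM in siNON dexamethasone libraries. All hormone libraries lay far below all vehicle libraries, and the log2 fold change was -1.33 ± 0.11 (edgeR adjusted p = 5.01e-08). In siBCOR cells the vehicle libraries had 17.99, 16.1, 15.6 and 15.2 CPM and the dexamethasone libraries 7.96, 6.25, 7.49 and 8.30 CPM. There was again no overlap, with a log2 fold change of -1.12 ± 0.11 (edgeR adjusted p = 6.35e-07), or 2.17-fold lower. The pseudogene DUSP5P1, whose sequence is close to that of DUSP5, had group means of 0.835 to 1.20 CPM, far below those of DUSP5. DUSP4, a nuclear phosphatase of ERK and JNK, had 11.7, 8.95, 8.84 and 9.53 CPM in siNON vehicle and 9.58, 8.99, 8.52 and 8.63 CPM in siNON dexamethasone libraries. These ranges overlapped, and the log2 fold change of -0.13 ± 0.10 was not called (edgeR adjusted p = 0.419, 95% interval -0.34 to 0.08).

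Of the cytoplasmic ERK phosphatases, DUSP7 was 55.6, 46.0, 42.7 and 50.3 CPM in siNON vehicle libraries and 40.2, 41.5, 40.2 and 32.9 CPM with dexamethasone. The groups came close without overlapping, and the log2 fold change was -0.33 ± 0.094 (edgeR adjusted p = 0.0184). This call was lost when siNON vehicle replicate 1, the highest library, was left out (edgeR adjusted p = 0.0716) and in a fit of these 2 groups alone (edgeR adjusted p = 0.0651). Over 25 alternatives the adjusted p ran from 0.00421 to 0.0716. In siBCOR cells DUSP7 went from 45.5, 45.5, 45.5 and 43.5 CPM to 32.0, 31.0, 35.7 and 27.5 CPM. Here the groups were clearly separate, with a log2 fold change of -0.51 ± 0.094 (edgeR adjusted p = 0.000648).

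DUSP6, the feedback phosphatase of ERK, was 7.09, 6.39, 6.77 and 8.17 CPM in siNON vehicle and 4.30, 6.40, 4.86 and 5.16 CPM in siNON dexamethasone libraries. 3 of the 4 hormone libraries lay below every vehicle library and replicate 2 lay among them, and the log2 fold change was -0.46 ± 0.12 (edgeR adjusted p = 0.0115). In siBCOR cells the values were 7.34, 5.74, 7.22 and 6.91 CPM in vehicle and 8.07, 6.99, 7.86 and 7.72 CPM in dexamethasone. These overlapped, and the log2 fold change of 0.17 ± 0.12 was not called (edgeR adjusted p = 0.314).

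Among the phosphatases of JNK and p38, DUSP8 was 17.1, 15.3, 13.3 and 14.7 CPM in siNON vehicle and 9.54, 9.72, 8.52 and 6.28 CPM in siNON dexamethasone libraries. The groups did not overlap, with a log2 fold change of -0.82 ± 0.13 (edgeR adjusted p = 0.000161). In siBCOR cells it went from 11.6, 14.2, 12.4 and 12.7 CPM to 5.72, 6.53, 6.62 and 4.59 CPM. That was 2.15-fold lower, again with no overlap (log2 fold change -1.11 ± 0.14, edgeR adjusted p = 9.02e-06). DUSP16 was 73.4, 80.4, 67.1 and 71.9 CPM in siNON vehicle and 51.9, 49.8, 52.1 and 49.1 CPM in siNON dexamethasone libraries. It lay lower in every hormone library, with a log2 fold change of -0.53 ± 0.063 (edgeR adjusted p = 5.98e-06). In siBCOR cells the vehicle libraries of DUSP16 had 54.4, 51.4, 52.7 and 47.8 CPM and the dexamethasone libraries 34.6, 32.2, 32.9 and 33.7 CPM. These did not overlap either (log2 fold change -0.63 ± 0.064, edgeR adjusted p = 9.17e-07).

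DUSP10, a stress-kinase phosphatase, was 2.54 to 3.53 CPM in siNON vehicle and 2.64 to 3.66 CPM in siNON dexamethasone libraries. The log2 fold change was 0.02 ± 0.14 (edgeR adjusted p = 0.930), with a 95% interval of -0.26 to 0.31. In siBCOR cells its difference was -0.23 ± 0.13 (edgeR adjusted p = 0.211, interval -0.51 to 0.04). DUSP14 was 56.3, 47.4, 56.8 and 60.4 CPM in siNON vehicle and 50.1, 51.7, 52.9 and 49.3 CPM in siNON dexamethasone, which overlapped (log2 fold change -0.11 ± 0.076, edgeR adjusted p = 0.340). In siBCOR cells it was 67.4, 59.8, 65.1 and 59.0 CPM in vehicle and 43.4, 47.4, 49.7 and 50.3 CPM in dexamethasone. There the groups did not overlap and the log2 fold change was -0.40 ± 0.076 (edgeR adjusted p = 0.000898).

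**Figure D3:**
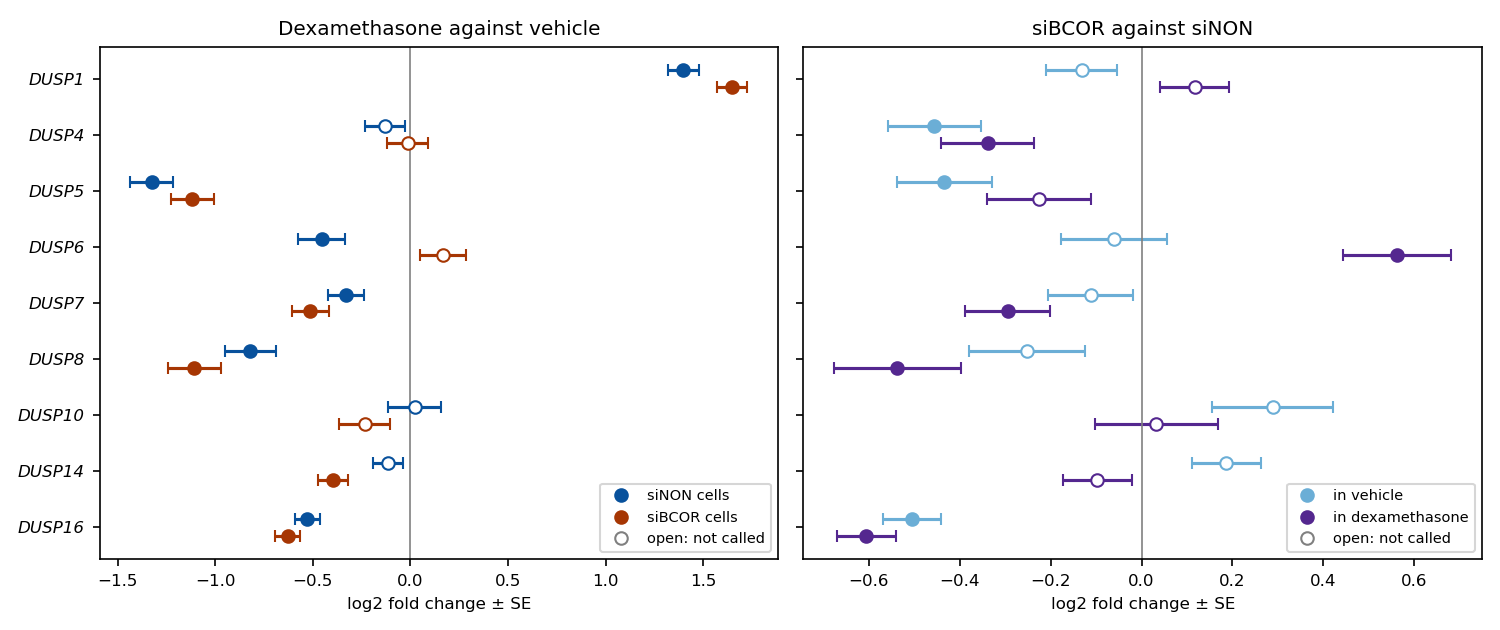
Log2 fold changes of the 9 tested DUSP genes with their SE, for dexamethasone against vehicle (left) and siBCOR against siNON (right). Filled points were called at an edgeR adjusted p of 0.05 and open points were not; DUSP1 lies far to the right of the other members on the left side, and DUSP16 is filled and below 0 in all 4 comparisons.

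The effect of BCOR depletion in vehicle was read from the same 4 siNON vehicle libraries that served as the base of the hormone effect, so the comparisons share control samples and their values are set side by side only. DUSP4, DUSP5 and DUSP16 were lower, which is 3 of 9 tested members against 8.23% of all genes tested. None was higher by edgeR or DESeq2, against 8.87% of all genes. At an unadjusted p under 0.05, 2 were higher and 3 lower, against 31.0% of all genes in either direction. The median log2 fold change of the 9 was -0.13, and of all genes 0.025. Without siNON dexamethasone replicate 4 and siNON vehicle replicate 3, 4 members were lower, against 15.1% of all genes, the added one being DUSP8 with a log2 fold change of -0.36 (edgeR adjusted p = 0.02001). Without all 3 libraries that stood apart, an alternative chosen after seeing the data, 6 members were lower, against 21.1% of all genes. DUSP8 then had a log2 fold change of -0.43, and DUSP1 and DUSP7, each at -0.24, were called as well. Over 25 alternatives the adjusted p of DUSP8 ran from 0.00238 to 0.423.

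In vehicle DUSP16 averaged 73.2 ± 5.51 CPM (SD, n = 4) in siNON and 51.6 ± 2.77 CPM in siBCOR cells. No siBCOR library reached any siNON library, and the log2 fold change was -0.51 ± 0.063 (SE; edgeR adjusted p = 6.27e-05). DUSP4 averaged 9.77 ± 1.35 CPM and, with siBCOR, 7.13 ± 0.661 CPM (log2 fold change -0.46 ± 0.10, edgeR adjusted p = 0.00590). DUSP5 averaged 21.9 ± 2.26 CPM and, with siBCOR, 16.2 ± 1.23 CPM (log2 fold change -0.43 ± 0.10, edgeR adjusted p = 0.00894). Neither DUSP4 nor DUSP5 had overlapping libraries. DUSP10 averaged 3.18 ± 0.441 CPM in siNON and 3.88 ± 0.385 CPM in siBCOR cells. Its highest siNON library, at 3.531 CPM, lay just below its lowest siBCOR library, at 3.55 CPM. The log2 fold change of DUSP10, 0.29 ± 0.13, was not called (edgeR adjusted p = 0.148). The share of all genes whose libraries did not overlap in this comparison is not given here. The other 5 members were not called: DUSP1 at -0.13, DUSP6 at -0.06, DUSP7 at -0.11, DUSP8 at -0.25 and DUSP14 at 0.19.

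In dexamethasone, siBCOR against siNON called 4 of 9 members lower and 1 higher, against 18.8% and 20.7% of all genes tested. The median log2 fold change of the 9 was -0.23, and of all genes 0.0247. With 39.5% of all genes called in this comparison, the 5 of 9 members called, and the 3 of 9 whose libraries did not overlap (34.2% of all genes), are to be read against a wide change. DUSP16 averaged 50.7 ± 1.51 CPM (SD, n = 4) in siNON and 33.3 ± 1.02 CPM in siBCOR cells. The groups were far apart (log2 fold change -0.61 ± 0.064 SE, edgeR adjusted p = 5.90e-06). DUSP6 averaged 5.18 ± 0.887 CPM and, with siBCOR, 7.66 ± 0.469 CPM. Its siBCOR libraries were all above its siNON libraries (log2 fold change 0.56 ± 0.12, edgeR adjusted p = 0.00225).

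DUSP4 in dexamethasone averaged 8.93 ± 0.479 CPM (SD, n = 4) in siNON and 7.08 ± 0.585 CPM in siBCOR cells (log2 fold change -0.34 ± 0.10 SE, edgeR adjusted p = 0.0170). Its libraries did not overlap, and the call was lost without siBCOR dexamethasone replicate 2 (edgeR adjusted p = 0.0544) or siNON dexamethasone replicate 1 (0.0552), the highest values over 25 alternatives, of which the lowest was 0.00282. DUSP8 averaged 8.51 ± 1.58 and 5.87 ± 0.941 CPM, with 1 siNON library, replicate 4, among the siBCOR libraries (log2 fold change -0.54 ± 0.14, edgeR adjusted p = 0.00758). DUSP7 averaged 38.7 ± 3.89 and 31.5 ± 3.37 CPM, with overlapping libraries (log2 fold change -0.29 ± 0.094, edgeR adjusted p = 0.0221). That call was lost when siNON dexamethasone replicate 1, 2 or 3 or siBCOR dexamethasone replicate 4 was left out, with edgeR adjusted p of 0.0598, 0.0708, 0.0612 and 0.0753, and the lowest over 25 alternatives was 0.000134. DUSP5 was not called at -0.23 ± 0.11 (edgeR adjusted p = 0.121), nor were DUSP1 at 0.12, DUSP10 at 0.03 and DUSP14 at -0.10. Without siNON dexamethasone replicate 4 and siNON vehicle replicate 3, DUSP5 was called at -0.31 (edgeR adjusted p = 0.0386), which made 5 members lower, against 27.3% of all genes. Without all 3 libraries that stood apart its adjusted p was 0.0296, again with 5 members lower, against 29.3% of all genes.

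Whether the hormone effect differed between siBCOR and siNON cells was tested directly as the interaction. None of the 9 members was called by edgeR or DESeq2, and 0.0974% of all genes tested were. At an unadjusted p under 0.05, 3 members passed, against 19.3% of all genes. DUSP6 had an interaction of 0.62 ± 0.17 log2 units (SE), with a 95% interval of 0.27 to 0.98 (edgeR adjusted p = 0.173). Without siNON dexamethasone replicate 4 this difference stayed at 0.62 and was called (edgeR adjusted p = 0.0350), in a fit where 8.7% of all genes were called higher. Without all 3 libraries that stood apart it was 0.59 (edgeR adjusted p = 0.0304), with 8.64% of all genes called higher. Over 24 alternatives the interaction of DUSP6 ran from 0.54 to 0.75 and its adjusted p from 0.0304 to 0.403. DUSP1 had an interaction of 0.25 ± 0.11, with an interval of 0.02 to 0.48 (edgeR adjusted p = 0.245). DUSP14 had -0.28 ± 0.11, with an interval of -0.51 to -0.06 (edgeR adjusted p = 0.223).

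DUSP16 had an interaction of -0.10 ± 0.090 log2 units, with a 95% interval of -0.29 to 0.09 (edgeR adjusted p = 0.501). DUSP16 levels with hormone alone, 50.7 CPM, and with BCOR depletion alone, 51.6 CPM, were close to each other, and its level with both was lower than either, at 33.3 CPM. Hormone alone also lowered BCOR RNA, with a log2 fold change of -1.06 in siNON cells (edgeR adjusted p = 1.45e-06). The part of this fall in the DUSP16 levels was not tested. DUSP5 had an interaction of 0.21 (interval -0.12 to 0.53), DUSP8 of -0.29 (-0.68 to 0.11) and DUSP7 of -0.18 (-0.46 to 0.10). DUSP4 had 0.12 (-0.19 to 0.42) and DUSP10 -0.26 (-0.66 to 0.14). These intervals leave room for differences in either direction.

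BCOR peaks near the members were taken from the authors' 3 lists in hg19 coordinates, with 267 vehicle-enriched, 3055 dexamethasone-enriched and 8587 shared peaks. Within 50 kb of the transcription start, 9 of 10 members had a shared peak, against 47.8% of all genes tested, and 3 had a dexamethasone-enriched peak, against 13.6%. None had a vehicle-enriched peak, which 2.74% of all genes had. Within 10 kb, 6 of 10 had a shared peak and 1, DUSP16, a dexamethasone-enriched peak, against 26.5% and 4.14% of all genes. Within 1 kb, 4 of 10 members had a shared peak, against 18.4% of all genes. The counts of members include DUSP2, which is not among the tested genes over which the shares were taken. The shares were not tested, and the peak lists carry no height by which peaks could be ranked.

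DUSP16 (chr12:12626216-12715448, minus strand) had the most peaks of the members within 50 kb. A shared peak at chr12:12714551-12714869 lay 0.579 kb inside the gene, a dexamethasone-enriched peak at chr12:12716477-12716811 lay 1.029 kb before the start, and a shared peak at chr12:12716904-12717222 lay 1.456 kb before it. A second dexamethasone-enriched peak, at chr12:12689099-12689433, lay 26.015 kb into the transcribed span. DUSP6 (chr12:89741602-89746636, minus strand) had 1 shared peak, chr12:89746426-89746744, which covered its start. The promoter letters printed above are from GRCh38.p14, and their positions are not those of the hg19 peaks. Their starts were not matched to the starts from which peak distances were taken.

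DUSP7 (chr3:52082937-52090461, minus strand) and DUSP10 (chr1:221874762-221915518, minus strand) each had a shared peak just before the start. These were chr3:52090787-52091121, at 0.326 kb, and chr1:221915749-221916100, at 0.231 kb. DUSP7 had a second shared peak 33.907 kb downstream, past its end, and DUSP10 a second one 31.826 kb into its span. DUSP1 (chr5:172195093-172198203, minus strand) had a shared peak at chr5:172199209-172199764, 1.006 kb before the start, another 5.049 kb downstream of the start, past the gene's end, and a dexamethasone-enriched peak, chr5:172162735-172163069, 35.134 kb downstream.

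DUSP5 (chr10:112257625-112271302, plus strand) had shared peaks 8.976 and 21.846 kb before the start, and a further one just outside the window at 50.982 kb. DUSP4 (chr8:29190579-29208267, minus strand) had a dexamethasone-enriched peak 26.932 kb before the start and a shared peak 35.718 kb downstream. DUSP14 (chr17:35849951-35873588, plus strand) had 1 shared peak, 37.533 kb downstream. The single shared peak of DUSP2 (chr2:96808908-96811179, minus strand), 27.916 kb downstream, lay within 1 kb of the start of ADRA2B. DUSP8 (chr11:1575281-1593150, minus strand) had no peak within 100 kb, and its nearest was a shared peak 261.386 kb away. Its RNA was called lower with dexamethasone in both kinds of cell and with BCOR depletion in dexamethasone, but not with depletion in vehicle. Peaks were mapped after 1 h and RNA was read after 6 h, and a link between them was not tested.

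**Figure D4:**
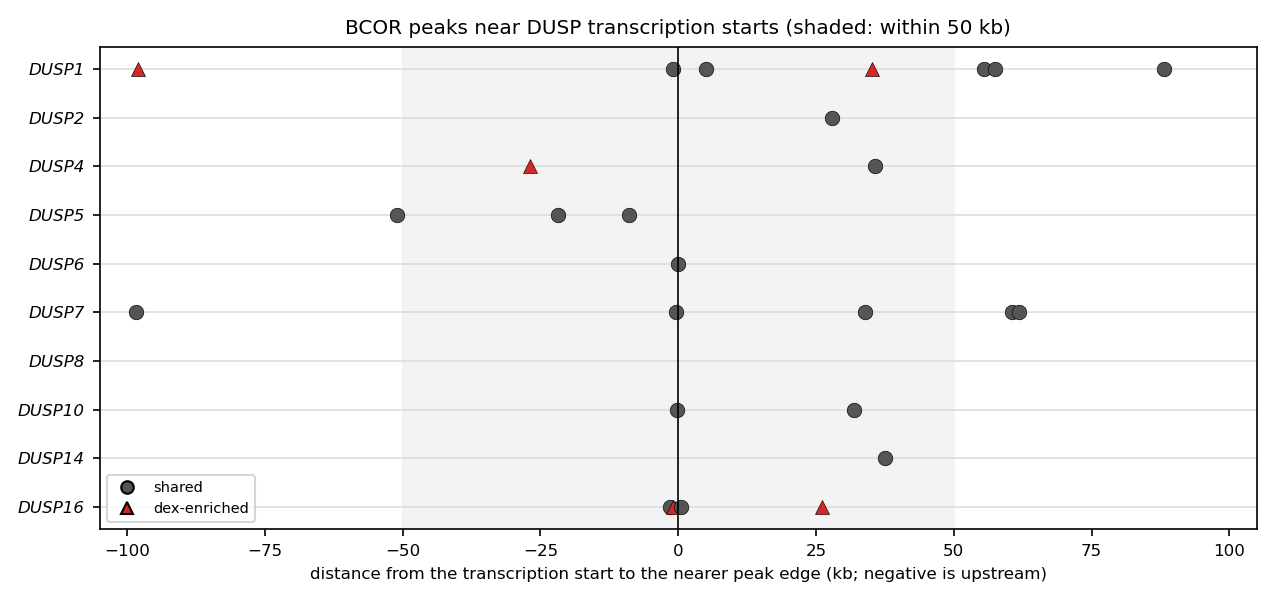
Distance in kb from each DUSP gene's transcription start (0; negative is upstream) to the nearer edge of each BCOR peak, by peak list. Circles are shared peaks, triangles dexamethasone-enriched peaks, and the shaded band is 50 kb to either side; DUSP16 has 4 peaks in the band and DUSP8 has none.

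The other genes of the pathway were read from the same fits and are to be set against the shares of all genes called. These were 10.7% higher and 8.64% lower for dexamethasone in siNON cells, 10.5% and 12.5% for dexamethasone in siBCOR cells, 8.87% and 8.23% for BCOR depletion in vehicle, and 20.7% and 18.8% for depletion in dexamethasone. Of 16 other dual-specificity phosphatases, 13 were tested, and none was called with dexamethasone in siNON cells by edgeR or DESeq2 (2 at an unadjusted p under 0.05). In siBCOR cells 1 was, DUSP3, with a log2 fold change of -0.20, named here after its value was seen. With BCOR depletion in vehicle, 4 were higher and 1 lower. The number higher was 2 by DESeq2, 1 with RLE or upper-quartile scaling, and 0 with no low-count filter, in a fit of the 2 groups alone or without siNON vehicle replicate 3. It was also 2 without siNON vehicle replicate 1 or 4 and 1 without replicate 2. DUSP9, an ERK phosphatase close to DUSP6 and DUSP7, was lower, with a log2 fold change of -0.86 ± 0.13 (SE; edgeR adjusted p = 0.000400). DUSP11 at 0.27, DUSP26 at 0.33 and the catalytically inactive STYXL1 at 0.25 were among those higher, with edgeR adjusted p of 0.0204, 0.0306 and 0.0205. Median log2 fold changes of these 13 were 0.06 with dexamethasone in siNON cells and 0.15 with BCOR depletion in vehicle, where those of the 9 DUSP members were -0.33 and -0.13.

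Of 17 MAP kinases and MAP kinase kinases, the substrates of the DUSP genes and the enzymes that activate them, 2 were higher and 0 lower with dexamethasone in siNON cells. These were MAPK7, which encodes ERK5, at 0.82 ± 0.12 (edgeR adjusted p = 7.86e-05), and the p38 gene MAPK14, at 0.16 (edgeR adjusted p = 0.0392). The count of 2 higher was 1 in 13 of 25 alternatives, among them RLE and upper-quartile scaling, no low-count filter, the 2-group fit and leaving out any of siNON dexamethasone replicates 1, 2 and 3, siNON vehicle replicates 1 and 4, and siBCOR dexamethasone replicates 1, 2 and 3. In siBCOR cells 1 was higher and 3 were lower. BCOR depletion in vehicle gave 2 higher, among them the JNK gene MAPK10 at 0.98, and 1 lower, the p38 gene MAPK11 at -0.63. In dexamethasone it gave 4 higher and 5 lower. Of 16 genes of the RAS and RAF input to ERK, 2 were higher (SHC1 at 0.40 and ARAF at 0.40) and 1 was lower (KSR1 at -0.45) with dexamethasone in siNON cells. Depletion in vehicle called none of them by edgeR or DESeq2 (3 at an unadjusted p under 0.05, where 31.0% of all genes passed), and in dexamethasone 9 were higher and 2 lower, where 20.7% and 18.8% of all genes were. Leaving out siBCOR vehicle replicate 2 brought 4 of the 16 to a higher call in vehicle, and leaving out all 3 libraries that stood apart brought 9.

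Of 14 genes that feed JNK and p38, 1 was higher and 2 were lower with dexamethasone in siNON cells. GADD45G, a stress-induced activator of a MAP kinase kinase kinase, was higher at 1.61 ± 0.13 (edgeR adjusted p = 3.50e-08), and GADD45A at -0.48 and the kinase MAP3K5 at -0.51 were lower. Depletion in vehicle called 3 higher and 4 lower, the latter being MAP3K11 at -0.80, GADD45G at -1.04, GADD45A at -0.63 and GADD45B at -0.47. The 3 higher were MAP3K5 at 0.45, MAP3K1 at 0.41 and MAP3K4 at 0.32, named here after their values were seen. Over the alternatives the number higher ran from 1 to 6. Depletion in dexamethasone called 6 of the 14 higher and 5 lower, where 20.7% and 18.8% of all genes were. With dexamethasone in siBCOR cells 3 were higher and 1 was lower, where 10.5% and 12.5% of all genes were. Of 17 tested ERK feedback genes and transcription targets, 3 were higher and 4 lower with dexamethasone in siNON cells, and 2 higher and 6 lower in siBCOR cells. PHLDA1 was higher at 3.23 ± 0.088, and the cyclin gene CCND1 at -0.77, the ephrin receptor gene EPHA4 at -0.97 and IER3 at -0.79 were lower. Depletion in vehicle called 1 of these 17 higher, the ETS factor gene ETV4 at 0.35 (edgeR adjusted p = 0.0257). The count was 0 in 8 of 25 alternatives, among them RLE and upper-quartile scaling, no low-count filter, the 2-group fit and leaving out siBCOR vehicle replicate 1 or siNON vehicle replicate 2 or 3. Depletion in dexamethasone called 1 of these 17 higher and 3 lower.

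For the tested members, the 2 genes with the nearest pattern over the 16 libraries were found by the root-mean-square difference of log2 CPM after centring on each gene's mean. DUSP5, whose own SD over the libraries was 0.645 log2 units, lay nearest to RAI2 at a difference of 0.152 and the growth factor receptor gene FGFR2 at 0.162. DUSP8, with an SD of 0.560, lay nearest to the potassium channel gene KCNJ12 at 0.139 and KLF10 at 0.156. DUSP16, with an SD of 0.405, lay nearest to GPAT3 at 0.0995 and the collagen gene COL12A1 at 0.108. For DUSP7 (SD 0.267) the nearest were MYBBP1A at 0.0612 and FAM171A1 at 0.0714. For DUSP6 (SD 0.259) JAKMIP2-AS1 at 0.154 and MYH3 at 0.155 were at a distance not far below its own SD. Other near genes were ZC3H12A and UBE2S for DUSP4, QPCTL and ASB16-AS1 for DUSP10, and BYSL for DUSP14, at 0.0790 to 0.114, with own SDs of 0.172 to 0.230.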

How the data were processed

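RNA was measured in 16 poly(A)-selected libraries. The authors deposited 1 table of raw counts, reads on exons of 65572 RefSeq transcripts in hg19, made with HOMER per the file headers; the submitters' processing notes also name Trimmomatic, TopHat2, FastQC, HOMER 4.10.3, Bowtie 0.12.9 and bedtools. Whether the counting used strand is not given in the sources used here (per the file headers no strand option was set, and the column names carry the word flip), so overlapping and antisense genes may share reads. No other gene symbol of the count table overlapped the chosen transcript span of any DUSP member. The labels give no batches. BCOR peaks are the authors' deposited lists, whose score column is 0 throughout, and how peaks were classed is not given in the sources used here.

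The transcript with the most reads stood for each symbol. The 134 transcripts without a gene name (0.0664% of counts) were left out. Genes passing filterByExpr were fitted in edgeR 4.0.16 (R 4.3.3) with the quasi-likelihood test, TMM scaling and 4 group means over all 16 libraries, with Benjamini-Hochberg adjustment over 16432 genes and calls at 0.05. The SE is the log2 fold change over the root of F, and intervals (95%) use the test's t quantile. The fit was tried on simulated counts for dexamethasone in siNON cells only, with the same spread for every gene. That simulation held no libraries that stood apart, so it does not cover their effect or the other comparisons. Depth of 18580294 to 28054808 counts limits low genes such as DUSP2. Replicates are the labels' biological replicates; p-values measure the spread between these libraries, and no 2 libraries agreed within sampling noise (chi-square per gene of 2.40 or more). Alternatives were DESeq2 1.42.0, other scalings, no filter, the longest transcript, a 2-group fit, the replicate number as a block, other peak windows and left-out libraries.

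All 10 members were named. From each list, up to 4 genes with the smallest adjusted p were named among those called for dexamethasone in siNON cells or depletion in vehicle. Similar genes needed a mean of 50 counts, with a prior count of 2 on the log scale. Some genes these rules name are not reported here. Members, lists and tests were chosen with earlier results of these data known. Promoters are RefSeq's, GRCh38.p14.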

Additional observations from a re-analysis of the deposited data

Results flagged for a closer look

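Each member's 4 libraries in each of the 4 groups were examined for a library far from the rest, 40 sets in all, by the gap to the nearest library over the whole range against Dixon's critical value for 4 libraries. By chance about 1 in 20 such sets is picked out. In siNON dexamethasone cells, DUSP7 was lowest in replicate 4, at 32.91 CPM against a median of 40.16 CPM in the other 3 libraries (gap over range 0.849). That library is also 1 of the 3 that stood apart over all genes. In siBCOR vehicle cells, DUSP7 was lowest in replicate 4, at 43.47 CPM against a median of 45.52 CPM in the other 3, which were nearly equal (gap over range 0.984).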

How the results depend on the processing

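No member's log2 fold change that was called turned its direction in any alternative. Over single members, 1099 values kept their side of the threshold, 9 newly passed it and 8 no longer did. Members called numbered 6 in each dexamethasone comparison under the replicate block, DESeq2 and every scaling, and 5 in siNON cells in a fit of the 2 groups alone or without siNON vehicle replicate 1. With BCOR depletion in vehicle, members called rose from 3 to 6, all lower, without the 3 libraries that stood apart, an alternative chosen after seeing the data, was 4 without the pair siNON dexamethasone replicate 4 and siNON vehicle replicate 3, and stayed at 3 whichever single library was left out. All genes called there went from 2809 to 1526 in a fit of the 2 groups alone, to 6372 without those 3 libraries and to 1810 to 3463 without single libraries. With BCOR depletion in dexamethasone, members called ranged from 3 to 5 and lower ones from 2 to 4 without single libraries, with 3 members without siNON dexamethasone replicate 1, were 6 without the pair or all 3 libraries, and all genes called from 4198 to 8170 against 6489. For the interaction, 0 members were called, and 1 without siNON dexamethasone replicate 4, without it and siNON vehicle replicate 3, or without all 3 libraries that stood apart. The interaction over all genes depended most on the setting: 16 genes by edgeR with TMM, 68 by DESeq2, 5 with RLE size factors, 6 with upper-quartile scaling, 5 with no filter on low counts, 3 with the replicate block, 2 to 2537 without single libraries, the highest without siNON dexamethasone replicate 4, 1785 without the pair and 2059 without all 3. The cause of these moves was not tested. Dexamethasone-enriched peaks were near 3 members within 50 kb and 1 within 10 kb. Counts of the pathway lists were less steady: MAP kinases called lower with depletion in dexamethasone ranged from 2 to 10 and RAS and RAF genes called higher from 3 to 10 there and from 0 to 9 in vehicle. With depletion in vehicle, other dual-specificity phosphatases called higher ranged from 0 to 4, genes feeding JNK and p38 called higher from 1 to 6, MAP kinases called lower from 1 to 8 and ERK targets called higher from 0 to 1. MAP kinases called higher with dexamethasone in siNON cells ranged from 1 to 3.

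Same-numbered libraries of different groups did not deviate together as a rule. Over 24 pairs the correlation of deviations ran from -0.526 to 0.503 with a median of -0.00709, and 6 pairs were over 0.1. Pairs with different numbers ran from -0.643 to 0.654. The lowest was siBCOR vehicle replicate 2 with siNON vehicle replicate 3, and the highest siNON dexamethasone replicate 4 with siNON vehicle replicate 3. These are the 3 libraries that stood apart, so some deviations were shared between groups. The block on replicate number gave 6, 6, 3 and 5 members in the 2 dexamethasone and 2 depletion comparisons, the counts found without it. It gave 3024 genes against 3180 for dexamethasone in siNON cells and 3752 against 3789 in siBCOR cells. 6 of 24 correlated best with their own number, out of 4 possible numbers.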
